A study of Sus scrofa with 19 samples.

Results

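The genes described here encode the proteins of the mitochondrial ribosome, measured in the longissimus dorsi muscle (LD) of Duroc pigs. They were chosen by symbol alone: every probe set with exactly 1 gene symbol in the platform annotation was taken where that symbol began with MRPL (large subunit) or MRPS (small subunit), and each gene was represented by its brightest probe set. This gave 58 genes, 36 MRPL and 22 MRPS, of the 6765 genes with 1 symbol among the 23999 probe sets tested. A further 6 probe sets that carry an MRPL or MRPS symbol together with another symbol were left out, and *MRPS18A*, *MRPS18B* and *MRPS18C* were not measured under this rule. By Entrez identifier 57 of the 58 genes matched the RefSeq annotation of Sscrofa11.1, where 56 have a place, on 16 chromosomes.

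Messenger RNA was measured with the Affymetrix porcine array in 19 pigs, with 1 array per pig. The LD HIGH group held 10 pigs and the LD LOW group 9, taken from the upper and lower ends of a ranking of slaughtered animals on carcass, plasma and muscle fat traits. All 19 pigs belonged to the same commercial Duroc line and were slaughtered at 190 days of age. The study's population consisted of castrated males from several families, kept at a test station and fattened in several batches. The labels give neither the family nor a batch or scan date for a pig. Each pig is a separate animal, so the errors below are between animals.

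Mitochondria keep a small genome that encodes core subunits of the respiratory chain and of ATP synthase, and a dedicated ribosome inside the organelle translates them. All proteins of this ribosome are encoded in the nucleus, made in the cytosol and imported. Many descend from bacterial ribosomal proteins, and others were added in the mitochondrial lineage. The small subunit reads the messenger RNA, the large subunit forms the peptide bond, and both are needed in tissues that rely on oxidative metabolism, muscle among them.

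Array medians ran from 3.43 to 3.59 log2 signal in LD HIGH and from 3.44 to 3.56 in LD LOW, and the lowest correlation between any 2 arrays was 0.970. The mean 3' minus 5' signal of the array's control probe sets for actin, EF1A and GAPDH, which rises as RNA degrades, ran from 0.863 to 1.20 log2 in LD HIGH and from 0.770 to 1.61 in LD LOW. The 7 skeletal muscle markers measured were above background on all arrays. Of 4 adipocyte markers, *FABP4* and *LPL* were above background on all arrays, *ADIPOQ* on 18 and *LEP* on none. The mean of these markers, as a deviation from the mean of all pigs, was 0.23 ± 0.42 log2 in LD HIGH and -0.26 ± 0.46 in LD LOW (SD, n = 10 and 9).

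All 58 mitochondrial ribosomal protein genes gave a signal above background. Each lay above all 17 tag control probe sets, which carry no porcine gene, on each of the 19 arrays. The same held for 16202 of all 23999 probe sets and for 5348 of the 6765 genes with 1 symbol, so this bar is low. Mean log2 signals ran from 4.20 to 10.8 over the MRPL genes, with a median of 8.85, and from 4.44 to 11.1 over the MRPS genes, with a median of 8.10. These ranges describe the probe sets and do not order the genes, since probe sets differ in how brightly they report a transcript.

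The SD between pigs within groups ran from 0.0975 to 0.535 log2, with a median of 0.255 over the MRPL and 0.278 over the MRPS genes. Its median was 0.259 over all members and 0.324 over 5290 other genes above background on all arrays. It was 0.252 over 59 nuclear genes of the respiratory chain and ATP synthase and 0.142 over 64 cytosolic ribosomal protein genes. A low spread is therefore not particular to the members. Among the members *MRPL18*, which belongs to the central protuberance of the large subunit, varied least (0.0975), followed by *MRPS23* (0.119) and *MRPL43* (0.176). For *MRPL18* this holds for the brightest probe set only. A second one, averaging 7.91 log2, had an SD of 0.35 in LD HIGH and 0.50 in LD LOW. The 5 most variable genes were *MRPL10* (0.535), *MRPS36* (0.506), *MRPL36* (0.429), *MRPS28* (0.417) and *MRPS12* (0.404). In *MRPL10* most of that spread lay in LD LOW, with an SD of 0.27 in LD HIGH and 0.73 in LD LOW.

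To ask whether the mitochondrial ribosome differed with fattening, LD HIGH was compared with LD LOW. No member passed the test. With limma and Benjamini-Hochberg adjustment over all probe sets, 0 of 23999 (0%) had an adjusted p under 0.05, and the smallest adjusted p was 0.993. At an unadjusted p under 0.05 there were 5 of the 58 members, all MRPL genes and all higher in LD HIGH. Over all probe sets this unadjusted threshold was passed by 843 (3.51%), of which 449 were higher (1.87%) and 394 lower (1.64%) in LD HIGH. Over the 5290 other genes above background it was passed by 284, 177 of them higher in LD HIGH. No member had groups that did not overlap, against 1 of 23999 probe sets (0.00417%).

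*MRPL1* encodes the protein of the L1 stalk, which guides the spent transfer RNA out of the ribosome. Its log2 signal ran from 7.91 to 8.82 with a median of 8.60 in LD HIGH, against 7.60 to 8.50 with a median of 8.14 in LD LOW. The groups overlapped, and 8 of 10 LD HIGH pigs lay above the LD LOW mean. The difference was 0.42 ± 0.14 log2 (SE), or 1.34-fold (limma, p = 0.00699, adjusted p = 0.993), the smallest unadjusted p among the members.

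*MRPL10* encodes the base of the stalk that binds translation factors. It ran from 7.31 to 8.18 with a median of 7.63 in LD HIGH, against 5.82 to 7.86 with a median of 7.22 in LD LOW. All 10 LD HIGH pigs lay above the LD LOW mean, while LD LOW was widely spread, with pigs 8700 (5.82) and 1918 (6.13) the lowest. The difference of 0.62 ± 0.24 log2 was the largest of the 58 and corresponded to 1.54-fold (limma, p = 0.0160, adjusted p = 0.993). It was 0.47 without LD LOW pig 8700 and 0.41 with limma's array weights, where its unadjusted p was 0.0777.

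*MRPL4* encodes a protein that lines the exit tunnel. It ran from 6.43 to 7.51 with a median of 6.83 in LD HIGH, against 5.76 to 7.14 with a median of 6.41 in LD LOW, and again all 10 LD HIGH pigs exceeded the LD LOW mean. The difference was 0.43 ± 0.17 log2 (limma, p = 0.0181, adjusted p = 0.993). *MRPL19*, whose protein sits at the face between the subunits, ran from 8.38 to 9.10 with a median of 8.65 in LD HIGH, against 8.12 to 8.81 with a median of 8.47 in LD LOW. Its difference was 0.26 ± 0.11 log2 (limma, p = 0.0321, adjusted p = 0.993).

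*MRPL18* ran from 8.26 to 8.59 with a median of 8.37 in LD HIGH, against 8.13 to 8.40 with a median of 8.19 in LD LOW. In LD LOW 8 of the 9 pigs averaged 8.19 ± 0.04 and pig 1539 stood apart at 8.40. The difference was small, 0.17 ± 0.07 log2 (limma, p = 0.0222, adjusted p = 0.993), but all 10 LD HIGH pigs lay above the LD LOW mean. A second *MRPL18* probe set gave 0.33 ± 0.19 log2 (limma, p = 0.102). An exact two-sided permutation test over all 92378 splits of the pigs gave an unadjusted p of 0.00163 for the brightest probe set. By that test 7 members had an unadjusted p under 0.05, the 5 above together with *MRPL45* (p = 0.0405) and *MRPS23* (p = 0.0137). It was run on the members, and no share over all probe sets is at hand to set beside that count.

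**Figure D1:**
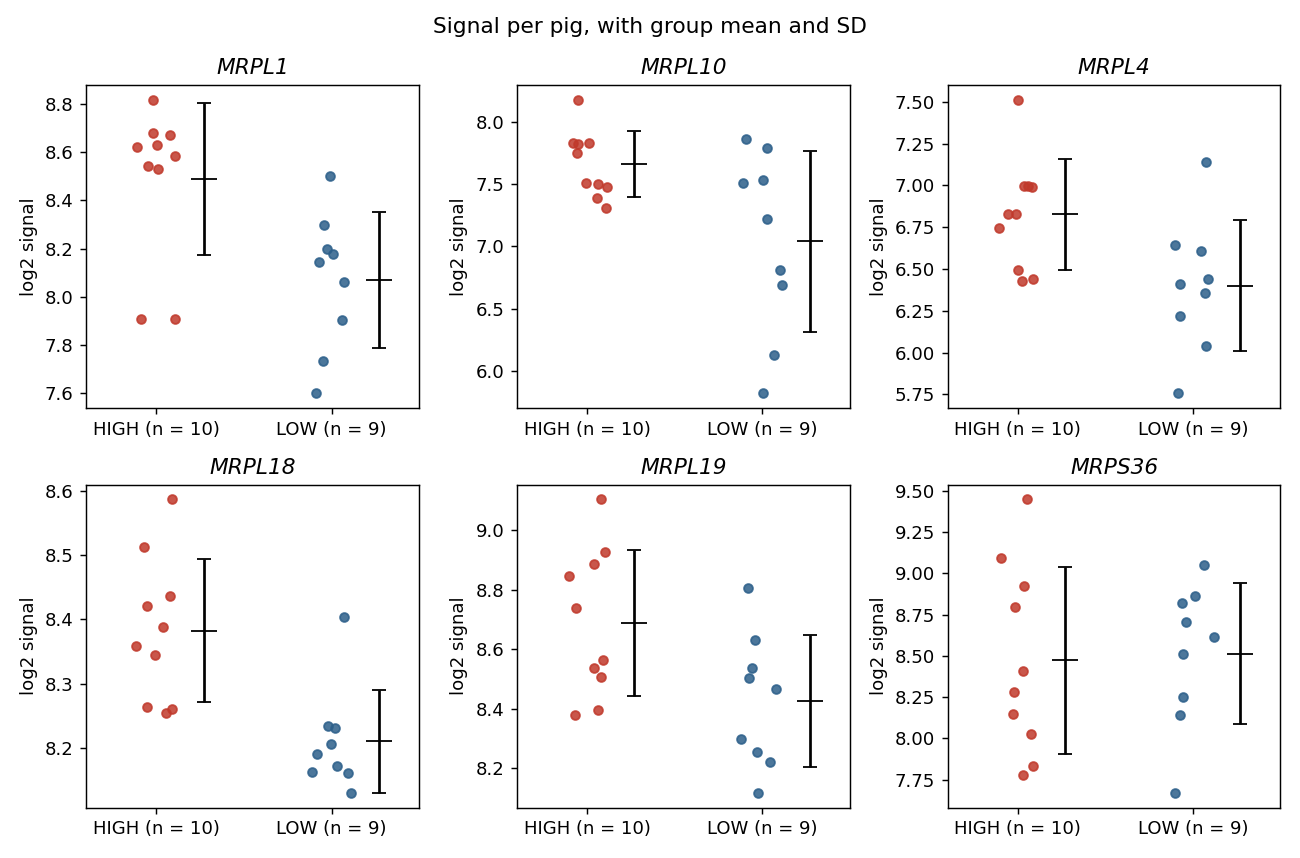
Log2 signal per pig (points) of the 5 genes with the smallest unadjusted p and of MRPS36, in LD HIGH (left, n = 10) and LD LOW (right, n = 9), with the group mean and SD as bars. In MRPL10, MRPL4 and MRPL18 all 10 LD HIGH pigs lie above the LD LOW mean, the groups overlap in every panel, and in MRPS36 the difference is -0.04 log2.

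Among the members lower in LD HIGH none had an unadjusted p under 0.05. The smallest was that of *MRPL37*, a subunit with no bacterial counterpart, which ran from 9.26 to 10.4 with a median of 9.77 in LD HIGH, against 9.48 to 10.4 with a median of 9.86 in LD LOW. Its difference was -0.16 ± 0.15 log2 (limma, p = 0.288, adjusted p = 0.993). The next were *MRPL48* (-0.12, another protein of the central protuberance), *MRPL28* (-0.08), *MRPL14* (-0.10, at the face between the subunits) and the small subunit gene *MRPS17* (-0.11), with unadjusted p from 0.422 to 0.461. In each of these 5 genes the groups overlapped.

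Within the small subunit the largest differences were those of *MRPS28*, at 0.32 ± 0.19 log2 (limma, p = 0.0983), and *MRPS12*, the protein at the decoding centre, at 0.29 ± 0.18 log2 (limma, p = 0.128). *MRPS28* averaged 7.94 ± 0.38 in LD HIGH, against 7.61 ± 0.45 in LD LOW, and 9 of 10 LD HIGH pigs exceeded the LD LOW mean. *MRPS12* averaged 7.14 ± 0.39 in LD HIGH, against 6.85 ± 0.42 in LD LOW.

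Over all members the differences were small and mostly on the same side. LD HIGH exceeded LD LOW in 45 of 58 genes, against 54.5% of the other genes above background, and the median difference was 0.10 log2, against 0.01. The MRPL genes were higher in 30 of 36, with a median of 0.11, and the MRPS genes in 15 of 22, with a median of 0.09. The members are not independent of each other, so these counts describe 19 animals and were given no test. The 95% confidence interval of the difference lay within 1.5-fold in either direction for 53 of the 58 genes. Since the muscle was measured whole, fewer cells of a type and less messenger RNA per cell cannot be told apart.

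**Figure D2:**
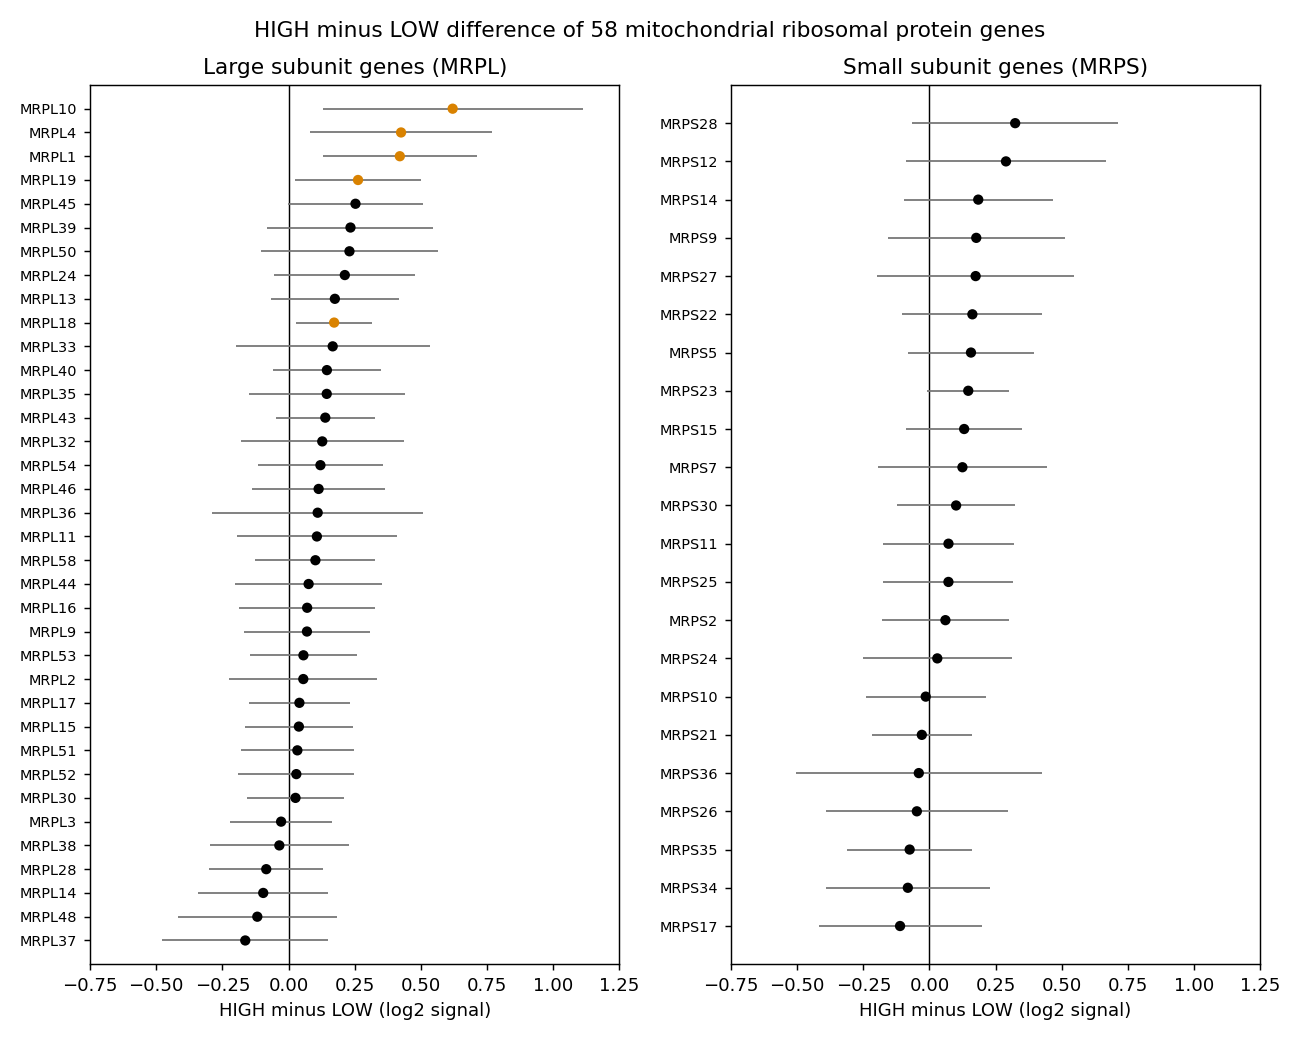
HIGH minus LOW difference in log2 signal (points) with its 95% confidence interval (lines) for 36 MRPL genes (left) and 22 MRPS genes (right), ordered by difference, with unadjusted p under 0.05 in orange. Points lie right of 0 in 30 MRPL and 15 MRPS genes, and the 5 orange points are all MRPL genes.

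Grouped by descent, 34 members have a counterpart in the bacterial ribosome and 23 have none there, with *MRPS36* left out of both groups. This grouping was made after the values were seen. The genes with a counterpart were higher in LD HIGH in 28 of 34, with a median difference of 0.12 log2, and held all 5 members with an unadjusted p under 0.05. Those without one were higher in 17 of 23, with a median of 0.10.

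The comparison groups of genes had medians close to 0. Nuclear genes of the respiratory chain and ATP synthase were higher in LD HIGH in 26 of 59, with a median of -0.02 log2. Most of their complexes, though not complex II, also hold subunits that this ribosome makes. By complex the medians were -0.03 for complex I, 0.01 for II, -0.01 for III, 0.10 for IV (5 of 7 genes higher) and -0.03 for ATP synthase. Genes taken for the cytosolic ribosome by their RPL or RPS symbol alone were higher in 40 of 64, with a median of 0.02. At an unadjusted p under 0.05 there were 1 respiratory chain gene, *ATP5J* (-0.17 ± 0.08 log2, limma, p = 0.0372), and 2 genes of the RPL and RPS list. These were *RPL37* (-0.37 ± 0.17, limma, p = 0.0447) and *RPS19BP1* (0.45 ± 0.19, limma, p = 0.0284). *RPS19BP1* entered by its symbol and encodes a protein that binds a ribosomal protein, not a ribosomal protein itself. Whether the groups of genes differ was not tested.

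Other genes of mitochondrial translation were read from the same fit. Of 7 translation factors 6 were higher in LD HIGH, with a median difference of 0.20 log2. The peptide release factor *MTRF1L* had the smallest p, with 4.81 ± 0.52 in LD HIGH and 4.27 ± 0.40 in LD LOW (0.54 ± 0.21, limma, p = 0.0171), followed by the elongation factor *TSFM* (0.21, p = 0.141) and *MTFMT* (0.21, p = 0.248), which formylates the initiator transfer RNA.

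Of 17 assembly and ribosomal RNA factors 12 were higher in LD HIGH, with a median of 0.09 log2. Unadjusted p were under 0.05 for the endoribonuclease *YBEY* (0.31 ± 0.13, limma, p = 0.0269), the RNA methyltransferase *MRM3* (0.51 ± 0.21, p = 0.0278, above background on 16 arrays) and, lower in LD HIGH, *MALSU1*, which binds the large subunit during assembly (-0.25 ± 0.11, p = 0.0401). All 7 transcription and messenger RNA factors were higher in LD HIGH, with a median of 0.08 and 1 unadjusted p under 0.05, that of the elongation factor *TEFM* (0.54 ± 0.25, limma, p = 0.0434).

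Of 5 ribosomal proteins with other symbols 2 were higher in LD HIGH, and *PTCD3*, a small subunit protein, stood out at 7.20 ± 0.29 in LD HIGH and 6.87 ± 0.25 in LD LOW (0.33 ± 0.13, limma, p = 0.0200). The mitochondrial tRNA synthetases were higher in 3 of 8 and the regulators of mitochondrial genes in 3 of 4, with no unadjusted p under 0.05. *PPARGC1A*, the coactivator that drives mitochondrial biogenesis, averaged 10.3 ± 1.5 in LD HIGH, against 9.58 ± 0.91 in LD LOW, and its correlation with the mean of the members was -0.200. None of these genes passed the adjusted threshold.

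The members also varied together from pig to pig. After the group means were removed, the median Pearson correlation over the 1653 pairs of members was 0.231, 76.6% of pairs were above 0 and 17% above 0.5. The other genes above background gave a median of 0.0115. Correlations over pigs are descriptions over 19 arrays that all genes share, and carry no p.

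The 2 subunits did not form separate blocks. The median was 0.235 within the MRPL genes, 0.216 within the MRPS genes and 0.228 between an MRPL and an MRPS gene. The respiratory chain genes were tighter among themselves, at 0.401, and the cytosolic ribosomal protein genes similar, at 0.215. Members correlated less with either of these groups than with each other, at 0.128 with respiratory chain genes and 0.101 with cytosolic ribosomal protein genes. A large part of the median rested on 1 animal. Without LD LOW pig 2157 it was 0.125 over all pairs of members, 0.103 within the MRPS genes and 0.130 between subunits, against 0.384 for the respiratory chain, 0.199 for the cytosolic ribosomal proteins and 0.00772 for other genes.

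**Figure D3:**
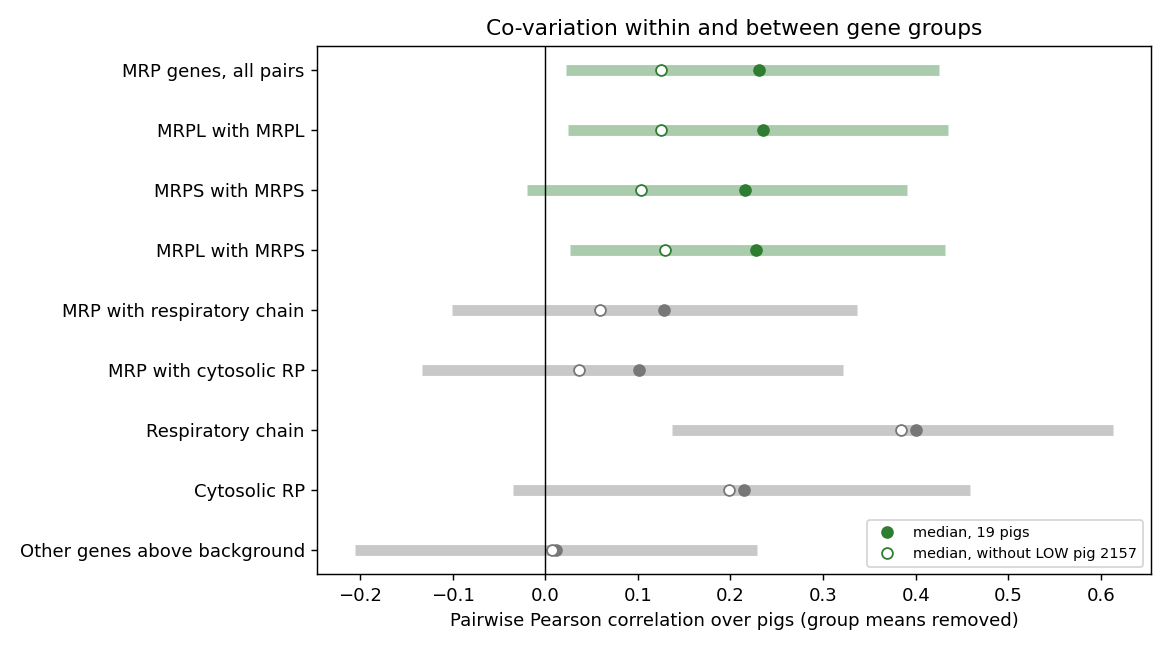
Pairwise Pearson correlations over pigs after removal of group means, within and between groups of genes: median over 19 pigs (filled points), quartiles (bars) and median without LD LOW pig 2157 (open points), with the mitochondrial ribosomal protein (MRP) genes in green. The 4 green medians lie between 0.216 and 0.235 and fall to between 0.103 and 0.130 without that pig, while the respiratory chain stays near 0.4.

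Pig by pig, the mean of the MRPL genes and the mean of the MRPS genes ran together, with r = 0.950 and rho = 0.928 over 19 pigs after removal of the group means, 0.862 within LD HIGH and 0.979 within LD LOW. Without pigs 1536 and 2157, the 2 whose deviation from their group mean lay farthest from the median, r was 0.875. As deviations from the mean of all pigs, the mean of the members ran from -0.16 to 0.15 log2 with a median of 0.06 in LD HIGH, against -0.21 to 0.33 with a median of -0.11 in LD LOW. Of the LD HIGH pigs 9 lay above the LD LOW mean, and the 1 below it was pig 1536. Of the LD LOW pigs 6 lay below 9 of the LD HIGH pigs, and pig 2157 lay above all of them.

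**Figure D4:**
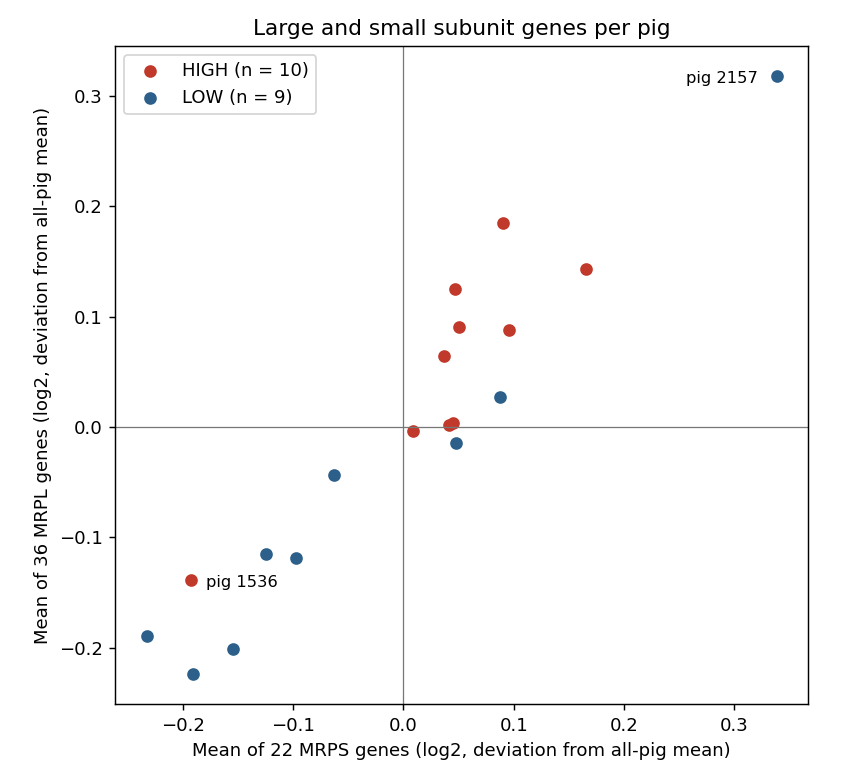
Mean of 36 MRPL genes against mean of 22 MRPS genes per pig, both as log2 deviations from the mean of all pigs, for LD HIGH (red, n = 10) and LD LOW (blue, n = 9). Pigs fall near a line (r = 0.950 after removal of group means), LD LOW pig 2157 is highest on both axes (0.32 and 0.34), and LD HIGH pig 1536 lies among the lower LD LOW pigs (-0.14 and -0.19).

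LD LOW pig 2157 had the highest signal of all 19 pigs in 19 of the 58 genes and lay above the mean in 49. The next was LD HIGH pig 8697, highest in 13. Without pig 2157 the difference between groups in the mean of the members was 0.15 log2, against 0.10 with it, and 12 members instead of 5 had an unadjusted p under 0.05, the same 5 among them. Without LD HIGH pig 1536 there were 10, again with the same 5. The count over all 23999 probe sets rose as well, from 843 to 1126 without pig 2157 and to 1638 without pig 1536.

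Measures of the arrays were correlated with the mean of the members. Over 19 pigs, group means removed, its correlation was -0.405 (rho -0.196) with the array median, -0.400 (rho -0.232) with the 3' minus 5' signal and 0.492 (rho 0.398) with the leading component of the 5290 other genes, and without pigs 1536 and 2157 it was -0.159, -0.290 and 0.237. Pig 2157 had the lowest 3' minus 5' signal (0.770) and pig 1536 the highest array median (3.59). The part of these measures in the group difference was not tested. With the 3' minus 5' signal as a covariate, the median difference over the members was 0.09 log2, against 0.10 without it. The same 5 members, picked from these data for their small p, had an unadjusted p under 0.05 (limma). With that signal removed by regression the median pairwise correlation was 0.234, and with the leading component removed it was 0.225.

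With the respiratory chain mean the correlation was 0.448 (rho 0.49), and with the cytosolic ribosomal protein mean 0.447 (rho 0.344), and these were 0.292 and 0.233 without the same 2 pigs. Within LD HIGH the correlation with the respiratory chain mean was 0.0519, but 0.840 without pig 8697, which had the highest mean of the members (0.15) and the lowest respiratory chain mean (-0.32) of that group. Within LD LOW it was 0.616, or 0.551 without pig 2157, while that with the cytosolic ribosomal protein mean was 0.482, or -0.0124 without it. Means of marker lists for skeletal muscle, slow fibres, adipocytes, macrophages, endothelium, fibroblasts and blood gave correlations between -0.215 and 0.130, with 0.0998 for adipocytes and 0.00946 for slow fibres. These values moved with single pigs. Without pigs 1536 and 2157 they were 0.253 for adipocytes and 0.191 for slow fibres, and within LD LOW without pig 2157 they were 0.709 and 0.559. The blood list held 2 measured genes, *HBB* and *ALAS2*, and *ALAS2* was above background on 1 array. Within LD HIGH the correlation with the mean of these 2 was 0.788, against -0.188 within LD LOW. In all, 13 such relations were computed.

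Single genes followed the others to very different degrees. The correlation of a gene with the mean of the other 57 had a median of 0.491, or 0.363 without pig 2157, and was above 0 in 57 of 58 genes and above 0.5 in 28, namely 18 MRPL and 10 MRPS genes. Without pig 2157 it was above 0 in 50 genes and above 0.5 in 18. Over the 5290 other genes above background, the correlation with the members' mean had a median of 0.115 and was above 0 in 3287. It was above 0 in 54 of 59 respiratory chain genes, with a median of 0.245. The 7 translation factors had a median of 0.590, so following this mean is not particular to the members. Among the members it was highest for *MRPL36* (0.848), a short zinc-binding protein of the large subunit, then for *MRPL54* (0.811), *MRPS28* (0.809), *MRPL4* (0.781) and *MRPS12* (0.775). Without pig 2157 these were 0.805, 0.548, 0.680, 0.707 and 0.670. *MRPL36* ran from 7.15 to 8.61 with a median of 8.07 in LD HIGH, against 7.25 to 8.70 with a median of 7.75 in LD LOW, with pig 1536 lowest and pig 2157 highest.

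The 5 lowest were *MRPS36* (-0.284), *MRPL50* (0.00789), *MRPL18* (0.0189), *MRPL19* (0.0747) and *MRPL24* (0.0863). *MRPL18* and *MRPL19* are also 2 of the 5 genes with the smallest unadjusted p between groups. The place of *MRPL18* here depends on the probe set, since its second one gave 0.778.

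**Figure D5:**
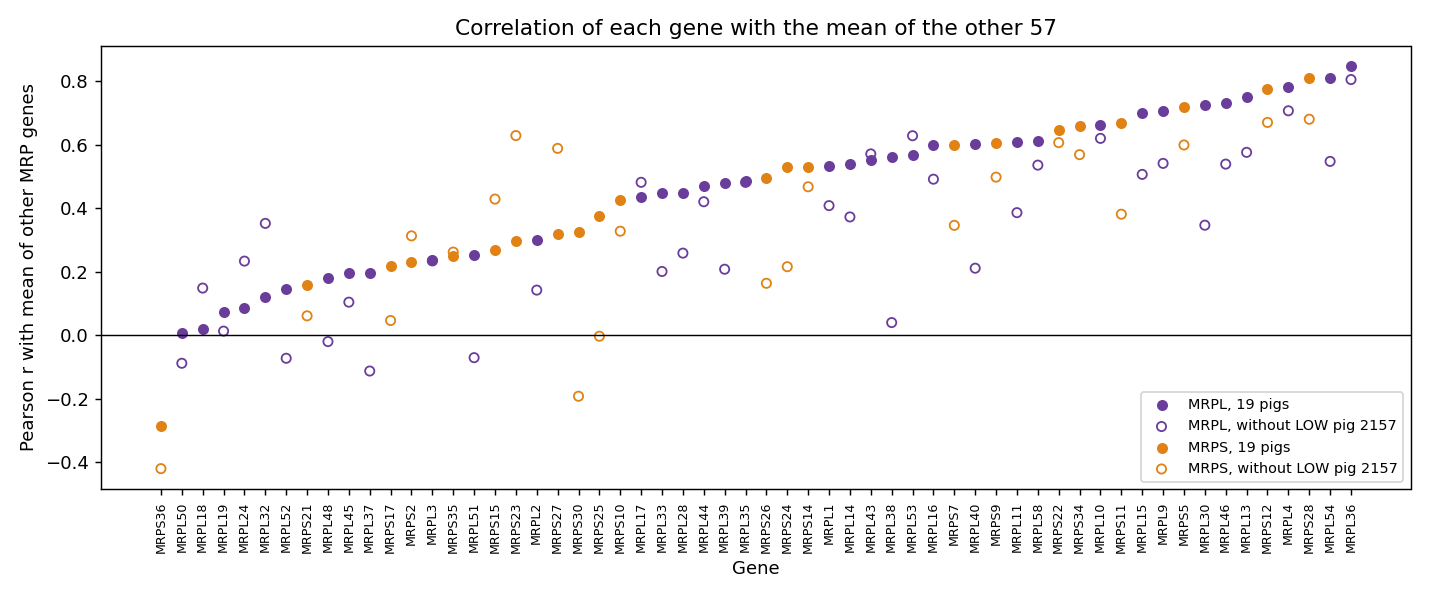
Pearson correlation over pigs, group means removed, of each gene with the mean of the other 57, over 19 pigs (filled) and without LD LOW pig 2157 (open), for MRPL (purple) and MRPS (orange) genes, ordered by the first. Values run from -0.284 in MRPS36 to 0.848 in MRPL36, and 57 of 58 filled points lie above 0.

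*MRPS36* stood apart. Despite its symbol, the protein is known from mammals as KGD4, a component of the 2-oxoglutarate dehydrogenase complex of the tricarboxylic acid cycle and not of the ribosome. Its log2 signal ran from 7.78 to 9.45 with a median of 8.34 in LD HIGH, against 7.67 to 9.05 with a median of 8.61 in LD LOW. The groups overlapped fully, with a difference of -0.04 ± 0.22 log2 (limma, p = 0.859). Its correlation was below 0 with 40 of the 57 other members, with a median of -0.240 and extremes of -0.495 with *MRPS2* and 0.682 with *MRPL50*. Without pig 2157 its correlation with the mean of the others was -0.419.

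The 3 enzymes of that complex, looked up after these values were seen, gave mixed correlations with *MRPS36*. The value was 0.692 for *DLD*, the dihydrolipoamide dehydrogenase that the complex shares with other complexes, -0.373 for *OGDH* and -0.399 for *DLST*. Of the 5290 other genes above background, 23 had a correlation with *MRPS36* at least as high as *DLD* (0.435%). *MRPS30*, the other gene whose symbol misplaces it, encodes a large subunit protein and gave 0.326 with the other members, or -0.191 without pig 2157. With *MRPS30* counted in the large subunit and *MRPS36* in neither, the median pairwise correlation was 0.234 within the large and 0.268 within the small subunit.

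The closest pair of genes in expression was also the closest on the chromosome. *MRPS11* (small subunit, chromosome 1, 191310547 to 191321951 in RefSeq Sscrofa11.1) and *MRPL46* (large subunit, 191321990 to 191331320) are 39 bases apart. Their correlation over pigs was 0.881, or 0.799 without pig 2157, the highest of the 1653 pairs. *MRPL46* ran from 8.60 to 9.28 with a median of 8.83 in LD HIGH, against 8.39 to 9.38 with a median of 8.76 in LD LOW. *MRPS11* ran from 8.21 to 8.83 with a median of 8.43 in LD HIGH, against 8.04 to 9.02 with a median of 8.33 in LD LOW. Pig 2157 was highest in both genes, and LD HIGH pigs 2144 and 1533 were the next in both.

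The other members within 2 Mb of each other were farther apart and gave correlations from -0.403 to 0.693. The highest was that of *MRPL38* and *MRPS7* on chromosome 12, which lie 530438 bases apart, and the lowest that of *MRPS36* and *MRPS27* on chromosome 16. After *MRPL46* and *MRPS11* the closest pairs in expression were *MRPS5* with *MRPS28* (0.843) and *MRPL33* with *MRPL39* (0.842). The most opposed pairs were *MRPL24* with *MRPL48* (-0.608) and *MRPL18* with *MRPL37* (-0.599).

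Outside the members, the genes whose pattern over pigs was most like the mean of the members were *HAUS2* (r = 0.891), a subunit of the augmin complex of the mitotic spindle, *C2H19orf70* (0.874) and *DCTN5* (0.858), a dynactin subunit. Those most opposed were *PTN* (-0.808), a secreted growth factor, *PTBP3* (-0.782), an RNA-binding protein, and *HBM* (-0.777), a globin. These are extremes picked from 5290 genes over 19 pigs, and without pig 2157 they were 0.797, 0.828, 0.784, -0.607, -0.440 and -0.402. Of the opposed genes, *PTN* averaged 4.00 log2, *PTBP3* 6.34 and *HBM* 3.32, where the highest tag control value was 2.72. The signal of *HBM* in particular was near background.

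The array holds more than 1 probe set for 14 members, and these did not always tell the same story. In all 77 probe sets measured the 58 genes, and 19 were not the brightest of their gene. On all arrays 18 of the 19 exceeded background, and 1, for *MRPL52*, did so on none. The sign of the group difference was that of the brightest probe set in 14 of 19, and their correlation with it over pigs ran from -0.457 to 0.796, with a median of 0.384. The best match was in *MRPS12*, whose other 2 probe sets gave 0.796 and 0.765 and differences of 0.29 and 0.40 log2, beside 0.29 for the brightest.

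Probe sets of 1 gene disagreed in several members. The lowest correlation with the brightest probe set, -0.457, was in *MRPL35*. It came from a probe set that averaged 2.82 log2, near the highest tag control value of 2.72. The second probe set of *MRPL18* averaged 8.06 ± 0.35 in LD HIGH, against 7.74 ± 0.50 in LD LOW, a difference of 0.33 ± 0.19 log2 (limma, p = 0.102). It correlated at -0.197 with the brightest probe set, and its correlation with the mean of the other members was 0.778, against 0.0189 for the brightest. In *MRPS2* the brightest probe set gave 0.06 log2 and the other -0.16, and in *MRPL38* the correlations with the other members were 0.560 and -0.430. For the brightest and the dimmest probe set these were 0.730 and -0.590 in *MRPL46*, and 0.236 and -0.652 in *MRPL3*. The dimmest averaged 2.70 log2 in *MRPL46*, again near the tag controls, and 4.11 in *MRPL3*. Values so near the tag controls say little about the transcript.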

How the data were processed

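LD samples of 10 HIGH and 9 LOW Duroc pigs were hybridised to the Affymetrix porcine array. The authors deposited a log2 signal for each probe set, computed with GCRMA per the labels (no version named in the sources used here). Background correction, normalization and summary therefore precede every value here. A second deposited table repeats part of these values and was not used. The table holds 24114 probe sets, and without its 115 controls 23999 entered the fit, at any level. The contrast HIGH minus LOW was fitted in R 4.3.3 by limma-trend (limma 3.58.1), and p-values were adjusted by Benjamini-Hochberg over these probe sets, at a threshold of 0.05. The script was tested on simulated data. Correlations over pigs were computed in Python 3.11.15 (NumPy 2.4.6, SciPy 1.17.1) on deviations from group means, also for means of gene groups. Within 1 group they were also computed without a pig that stood apart (pig 8697 chosen after seeing the data). Background was the highest of 17 tag controls on an array. Genes were named from the platform annotation and placed with RefSeq Sscrofa11.1, while the array files name no build. The number of arrays limits the precision.

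Members, gene lists and tests were chosen with earlier results of these data known, and the grouping by bacterial counterpart was added after the values were seen. Named are, in each direction, the 5 members with the smallest p, the 5 most and 3 least variable, the 5 that followed the others most and least, and members whose probe sets disagree. Genes outside these rules were named after their values were seen. Alternatives were array weights, no trend, a filter on level, quantile normalization, the 3' minus 5' signal, the mean of all probe sets of a gene, other placement of subunits, Spearman correlation, no centring by group, the leading component (added after seeing the data) and leaving out each pig. A planned search of promoter motifs was not run.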

Additional observations from a re-analysis of the deposited data

Results flagged for a closer look

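In each group the highest and the lowest pig were set against the other pigs by the gap to the nearest one over the whole range. Of 128 groups of values 23 held a pig that stood apart at the 95% level, where chance gives about 6.

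Among LD HIGH pigs, pig 1533 was highest in *MRPL2* (9.70), *MRPL11* (9.39) and *MRPL45* (9.75, against 8.96 ± 0.12 in the 9 others), pig 8697 in *MRPL13* (9.47) and *MRPL58* (9.22), and pig 2144 in *MRPL4* (7.51). Pig 1536 was lowest in *MRPS28* (6.97, against 8.05 ± 0.19), in the mean of all members (-0.16) and in the mean of the MRPS genes (-0.19), and had the highest array median (3.59).

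LD LOW pig 2157 accounted for 9 of the 23. It was highest in *MRPL30* (11.01, against 10.4 ± 0.1 in the 8 other LOW pigs, mean ± SD), *MRPL38* (9.31), *MRPL40* (8.51), *MRPL54* (5.85), *MRPS7* (6.39), *MRPS24* (10.1) and *MRPS26* (10.2, against 9.29 ± 0.16). Its mean of all members was 0.33 log2 above that of all pigs, against -0.10 ± 0.10 in the other LOW pigs, and its mean of the MRPL genes 0.32. LD LOW pig 1918 was lowest in *MRPL44* (7.14), pig 1539 highest in *MRPL18* (8.40), and pig 1444 highest in *MRPL24* (4.51) and in the 3' minus 5' signal (1.61, against 1.0 ± 0.15).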

How the results depend on the processing

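Direction was kept in all 250 recalculations of the 10 genes named for HIGH against LOW, with no adjusted p under 0.05. These genes were picked from the same data for their small p, which favours a kept direction. Some settings, such as no trend and the filter on level, leave a difference unchanged by construction. With limma's array weights 5 of 23999 probe sets passed the adjusted threshold, none of them a member, and 2933 had an unadjusted p under 0.05. There 12 members did, all higher in LD HIGH, 3 of them among the 5 of the unweighted fit, and the smallest adjusted p of a member was 0.0987 (*MRPL1*, limma). LD HIGH pig 1536 and LD LOW pig 1918 had the lowest weights (0.141 and 0.212). The number of members with an unadjusted p under 0.05 was 5 to 7 under the other settings and 4 to 12 when each pig was left out, while the number past the adjusted threshold stayed at 0. Over all probe sets, leaving out each pig gave 638 to 1638 at that unadjusted threshold. The cause was not tested.

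Leaving out each pig gave median differences from 0.07 to 0.14 log2 over all members, 0.07 to 0.15 over the MRPL and 0.05 to 0.14 over the MRPS genes, where the extremes were those without LD HIGH pig 1533 and without LD LOW pig 2157. Under quantile normalization the last median was 0.05, against 0.09. Median pairwise correlations ran from 0.125 to 0.254 over all members, 0.125 to 0.254 within MRPL, 0.103 to 0.244 within MRPS and 0.130 to 0.263 between them, each lowest without pig 2157. Quantile normalization gave 0.168 over all members and 0.122 within MRPS. No paired analysis was possible because the replicate numbers are those of different animals and the groups share none. With 10 and 9 arrays, intervals of 5 members reach beyond 1.5-fold.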
